A study of Mus musculus with 6 samples.

Results

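The replication-dependent histone genes encode the histones that are made in bulk while DNA is copied. In these data they were the protein-coding genes of both deposited tables whose GENCODE vM21 name begins with Hist1h, Hist2h, Hist3h or Hist4h. This name rule found 67 of the 55450 genes in the tables: 6 of linker histone H1, 18 of H2A, 18 of H2B, 12 of H3 and 13 of H4. On the mm10 build, 54 of them lie on chromosome 13 (the Hist1 genes), 10 on chromosome 3 (Hist2), 2 on chromosome 11 (Hist3) and 1, Hist4h4, on chromosome 6. A further 3 genes with such names are annotated as pseudogenes and were left out.

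The libraries came from naive CD4 T cells of 2 wildtype mice aged 8 to 12 weeks. All cells were activated on IgG-coated plates with anti-CD3ε (0.25 μg/mL) and anti-CD28 (1 μg/mL) under TGF-β (0.1 ng/mL) and IL-6 (20 ng/mL), cytokines that drive the Th17 state. At 24 h each culture received a murine stem cell virus (MSCV) retrovirus, followed by 48 h in TGF-β (0.3 ng/mL) and IL-6 (20 ng/mL), and RNA was taken at 72 h. The vector was empty (the group empty_vector), or carried ADAR2 (ADAR2_WT) or its enzymatically dead form (ADAR2_E396A). ADAR2 turns adenosine into inosine in double-stranded RNA. Each of the 3 groups holds 2 libraries, 1 per mouse, and the mice are called donors A and B here. The control cells therefore carry a retrovirus too. Whether transduced cells were sorted is not given in the sources used here.

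Core histones H2A, H2B, H3 and H4 form the spool of the nucleosome, and H1 binds the DNA that enters and leaves it. As a class, the mRNAs of such genes are the known exception to polyadenylation. They typically end in a conserved stem-loop bound by SLBP, the stem-loop binding protein, which takes part in their cleavage, export, translation and decay. They rise as a cell enters S phase and are degraded at its end, so their level in a tissue is commonly read as a sign of DNA synthesis. Dividing T cells are rich in them. A library made from poly(A)-selected RNA largely loses these transcripts, whereas the ribosome-depleted RNA used here keeps them.

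The stem-loop is shown first because it is the feature the members share that the name rule did not use. Among members with annotated bases after the stop codon, 44 of 52 held a 16-base stem-loop there, 21 to 58 bases after the stop (median 31). Of 21017 other protein-coding genes with such bases, 3 held it (0.014%): H2afx, H2bfm and Tmem164. The 7 forms, read from the GENCODE transcripts in DNA letters with the paired arms in capitals, were:
26 members, among them Hist1h1c, Hist1h1d, Hist1h1e, Hist1h2ab and Hist1h3b: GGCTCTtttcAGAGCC
7 members, all H4, among them Hist1h4c, Hist1h4d, Hist1h4f and Hist4h4: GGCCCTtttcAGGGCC
6 members, among them Hist1h2bb, Hist1h3c and Hist1h3e: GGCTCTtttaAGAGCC
2 members, Hist1h4i and Hist2h4: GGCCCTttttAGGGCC
Hist1h4a: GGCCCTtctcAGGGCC
Hist1h3g: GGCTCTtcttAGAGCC
Hist2h2ac: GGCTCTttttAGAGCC
The arms sorted by class: all 10 stem-loops found in H4 genes opened with GGCCCT, and all 34 found in the other classes opened with GGCTCT. In these opening arms only the Y letters were free, and the search fixed the others. A missing match says only that this pattern is not in the annotated bases.

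The promoters also differed by class. RefSeq (GRCm38.p6) gave a window from 250 bases before to 50 bases after the start for 62 members. On either strand, CCAAT was found in 53 of the 62 (85.5%) against 37.3% of 32789 other promoters of the same length. Every H1, H2A, H2B and H3 window held it, and 3 of 12 H4 windows did (25%). TATAAA was found in 35 (56.5%, against 13.5%). The octamer ATTTGCAT, the letters bound by POU-domain factors such as Oct-1, was found in 13 (21%, against 1.7%), of which 7 were H2A and 6 were H2B. Windows of H2A and H2B genes that lie head to head overlap, so the same motif can be counted for both genes. No motif overlaps another in the 3 promoters printed next, which show an H1, an H2B and an H4 layout. Each is the 250 bases before the RefSeq start on the gene's own strand, with the searched letters in capitals (ATTGG is CCAAT on the other strand).
Hist1h1e, chr13:23622559-23622808, minus strand: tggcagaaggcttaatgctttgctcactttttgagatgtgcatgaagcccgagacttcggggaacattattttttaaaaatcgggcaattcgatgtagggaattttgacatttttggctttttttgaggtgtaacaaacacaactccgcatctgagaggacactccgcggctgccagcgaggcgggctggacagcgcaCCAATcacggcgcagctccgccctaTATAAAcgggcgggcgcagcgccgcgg
Hist1h2bg, chr13:23571150-23571399, plus strand: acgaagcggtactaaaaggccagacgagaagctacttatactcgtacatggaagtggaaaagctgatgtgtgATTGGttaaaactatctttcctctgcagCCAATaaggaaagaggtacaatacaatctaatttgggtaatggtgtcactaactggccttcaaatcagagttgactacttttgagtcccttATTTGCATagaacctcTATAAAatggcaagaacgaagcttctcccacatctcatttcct
Hist1h4k, chr13:21750554-21750803, minus strand: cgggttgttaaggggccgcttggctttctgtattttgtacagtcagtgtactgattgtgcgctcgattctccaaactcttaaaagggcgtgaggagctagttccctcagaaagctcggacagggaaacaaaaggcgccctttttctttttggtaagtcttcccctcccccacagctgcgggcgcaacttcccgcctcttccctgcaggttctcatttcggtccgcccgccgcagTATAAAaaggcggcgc
In Hist1h1e the TATAAA begins 27 bases before the start and the CCAAT 52. Hist1h2bg, printed as an example of the octamer after its values were seen, has the octamer 59 and TATAAA 43 bases before its start. Its window runs toward Hist1h2ae, which is read in the other direction. Hist1h4k has TATAAA 16 bases before its start and no CCAAT.

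Total reads in genes ran from 16496328 to 21897166 per library. Adarb1, the gene of ADAR2, stood at 3687 and 3346 normalised counts with the empty vector (donors A and B), 18499 and 19077 with ADAR2_WT and 15709 and 14982 with ADAR2_E396A, as the labels say. The sum of 8 T and Th17 cell genes was 2786 and 3223 RPM (reads per 1000000 protein-coding reads) with the empty vector, 2757 and 3926 with ADAR2_WT and 2428 and 4958 with ADAR2_E396A. With ADAR2_WT over the empty vector 0 of the 8 passed the adjusted threshold in limma. At an unadjusted p under 0.05, 4 were lower (7.11% of all genes) and Il17a was higher (6.99%). The median of the 8 was -0.205, and their part in the histone results was not tested. Summed markers of B, myeloid and erythroid cells stayed at or below 4.82 RPM in every library, with Ms4a1, S100a8 and Hbb-bt at 0. The sum of 9 CD8 and NK cell genes was 164 and 100 RPM with the empty vector, 61.5 and 46.4 with ADAR2_WT and 209 and 109 with ADAR2_E396A, with Ncr1 at 0 throughout. In that list Klrd1, Klrc1 and Klrk1, receptors of NK cells and killer T cells, fell with ADAR2_WT (limma, adjusted p = 0.025, 0.0075 and 0.042), and its part in the histone results was not tested.

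Histone mRNA made up 0.309% (donor A) and 0.347% (donor B) of protein-coding reads with the empty vector. With ADAR2_WT the shares were 0.380% and 0.373%, and with ADAR2_E396A 0.357% and 0.332%. Both ADAR2_WT libraries lay above the other 4. Relative to the same donor's empty-vector library, the histone sum was 22.95% higher in donor A and 7.51% higher in donor B with ADAR2_WT. With ADAR2_E396A it was 15.33% higher in donor A and fell by 4.25% in donor B, and ADAR2_WT exceeded ADAR2_E396A by 6.61% and 12.28%. The empty-vector libraries stood at 3095 and 3469 histone RPM, and in donor B ADAR2_WT stood at 3729, so the empty-vector libraries differed from each other by more than ADAR2_WT differed from its control in donor B. An exact permutation within donors cannot go below a two-sided p = 0.5 with 2 donors, and no test of the sums is given. In bulk RNA, a different share of cells in S phase and a different amount of histone mRNA per cell cannot be told apart.

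**Figure D1:**
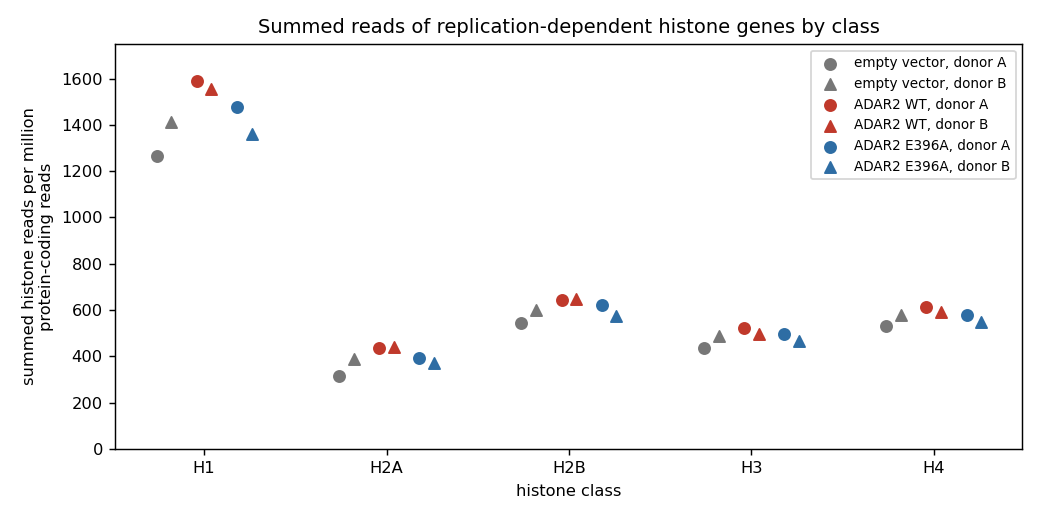
Summed reads of each histone class in RPM (reads per 1000000 protein-coding reads) (vertical axis, from 0) in each of the 6 libraries; circles are donor A and triangles donor B. H1 forms the largest class in every library, and in each class both ADAR2_WT libraries lie above both empty-vector libraries.

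By class, H1 genes gave the most reads: 1264 and 1413 RPM with the empty vector, 1590 and 1553 with ADAR2_WT, and 1477 and 1362 with ADAR2_E396A. H1 was 40.7% to 41.8% of the histone reads of every library. These sums are not scaled for length: coding sequences ran from 630 to 672 bases in H1 and from 312 to 546 in the other classes. The part of length and of sequence shared between genes in the class shares was not tested. H2A was the smallest class, and of the classes it differed most in proportion between ADAR2_WT and the empty vector, with 317 and 388, 437 and 440, and 394 and 371 RPM in the same order. With ADAR2_WT the H2A sum was 37.98% higher in donor A and 13.45% higher in donor B. For H1 these differences were 25.79% and 9.90%, for H2B 18.35% and 7.71%, for H3 19.43% and 2.17%, and for H4 14.88% and 1.97%. Every class thus had the same sign in both donors with ADAR2_WT. With ADAR2_E396A every class was higher in donor A and lower in donor B, the changes in donor B running from -3.64% (H1) to -5.50% (H4).

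Levels of single genes spanned several orders of magnitude. The filter on low counts kept 55 members (5 H1, 13 H2A, 15 H2B, 9 H3 and all 13 H4), and 12 did not pass. Of those 12, the 5 genes Hist2h2aa1, Hist2h2aa2, Hist2h2bb, Hist2h3b and Hist2h3c1 had 0 reads in every library. The other 7, Hist1h1t, Hist1h2aa, Hist1h2ao, Hist1h2ap, Hist1h2ba, Hist1h2br and Hist2h3c2, had at most 13 reads in a library. Hist1h1t and the pair Hist1h2aa and Hist1h2ba are known as testis histones. Among the 55 kept, 50 had a mean of at least 50 normalised counts.

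These 5 genes at 0 were also the members with no sequence of their own. For each member, the share of 50-base stretches of its transcripts that occur in no other annotated gene, on either strand, was computed. This share was 0% for exactly 5 members, the 5 without reads, and each of them also shares exon bases with another annotated gene at its own place. Every such stretch of these genes also occurs in another annotated gene, on the same or the opposite strand. How reads from such stretches were counted is not given in the sources used here. A count of 0 therefore does not show that the gene is silent. In all, 24 members share exon bases with another annotated gene. For 17 of the 18 H2A genes the partner is a predicted miRNA entry on the opposite strand, covering 129 to 144 bases, and no gene of another class has one. Reads there cannot be told from reads of the H2A gene where counting ignores strand, and the strand setting is not given in the sources used here. Its part in the level of H2A against the other classes was not tested.

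**Figure D2:**
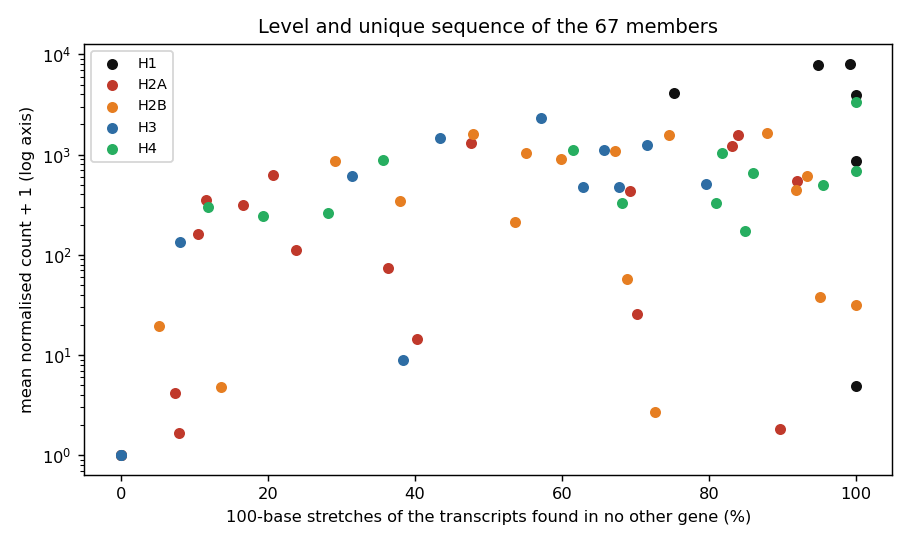
Mean normalised count plus 1 over the 6 libraries (vertical, log axis) against the percent of each member's 100-base transcript stretches that occur in no other annotated gene (horizontal). The 5 members at 0% lie on top of each other at no reads; points are genes coloured by class.

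Among H1 genes, Hist1h1b had the highest mean per kilobase (kb) of exon, 5310 normalised counts, with 3405 and 4032 counts in the empty-vector libraries (donor A, then B), 4457 and 4073 with ADAR2_WT and 4012 and 3692 with ADAR2_E396A. Hist1h1c followed with 4993 per kb and Hist1h1e with 2158. The order depends on the annotated length: per kb of coding sequence Hist1h1c led at 12190, next to Hist1h1d at 12165, which has a long annotated exon and is named here after its values were seen. Both encode somatic linker histones of dividing cells. Hist1h1a lay lowest of the kept H1 genes, with 758 and 1077 counts, 711 and 875, and 811 and 974 in the same library order. It was lower in donor A than in donor B in every group.

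In the core classes the leaders per kb of exon were Hist1h2ak for H2A (3978), Hist1h2bn for H2B (4180), Hist1h3e for H3 (2784) and Hist1h4d for H4 (2974). By coding length Hist1h3e stood at 5663 and Hist1h4d at 10847, the only core gene near the leading H1 genes by this measure. That place depends on the annotation, since Hist1h4d has 1138 exon bases but 312 coding bases. Per kb of exon it lay below Hist1h2bn and Hist1h2ak. The counts of Hist1h4d were 3245 and 3307 with the empty vector, 3772 and 3447 with ADAR2_WT and 3386 and 3148 with ADAR2_E396A. By coding length the H2B order changed, with Hist1h2be (4347, named after its values were seen) above Hist1h2bn. The next places per kb of exon were held by Hist1h2ab (2779) and Hist2h2ac (2349) in H2A, by Hist1h2bb (2135) and Hist1h2bj (1939) in H2B, by Hist1h3b (2335) and Hist1h3c (1999) in H3, and by Hist1h4k (2861) and Hist1h4f (2629) in H4. Outside H2A, the 3 leading places of each class were held by Hist1 genes.

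**Figure D3:**
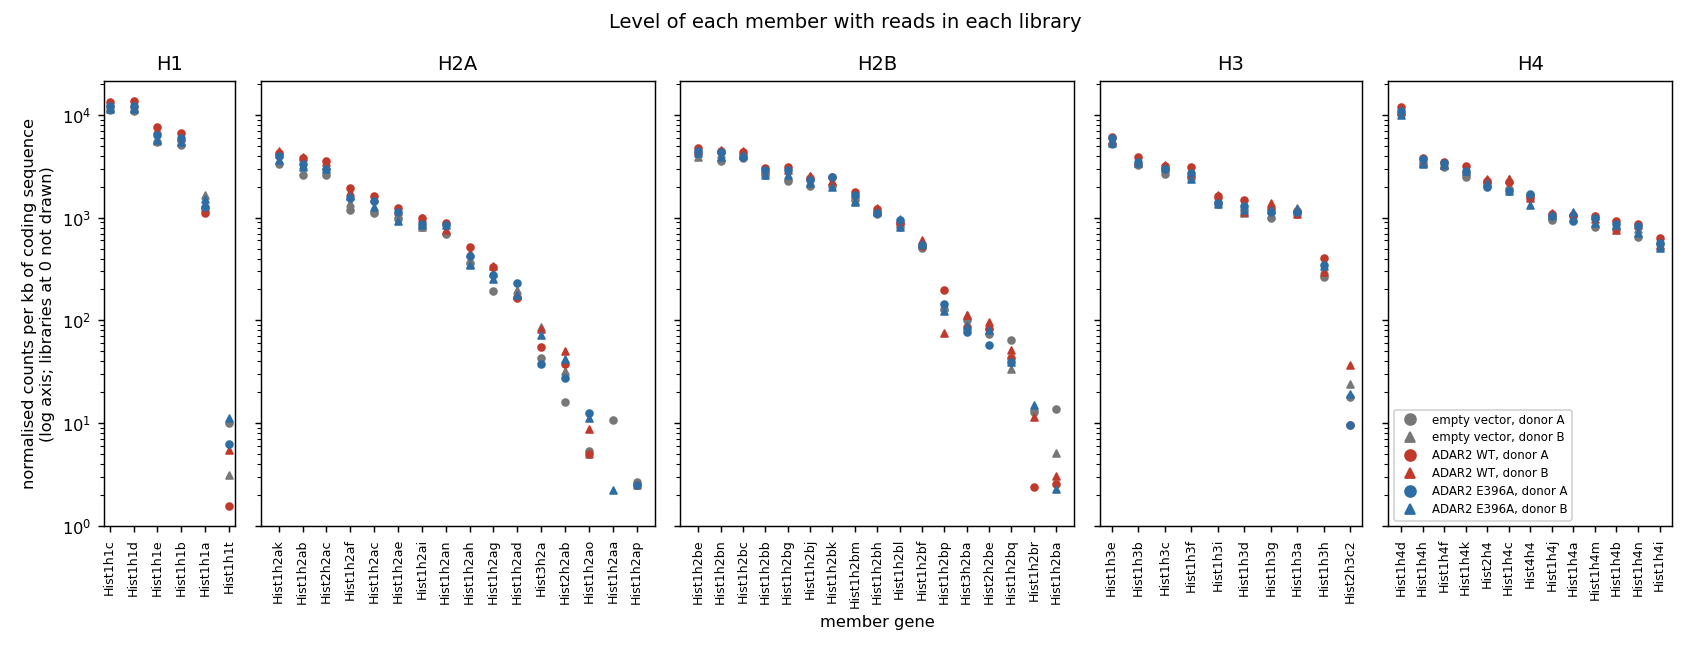
Normalised counts per kb of coding sequence (log axis) of each member with reads, by class and ordered within it, in the 6 libraries (colour is the group, circle donor A, triangle donor B); libraries at 0 are not drawn. The libraries of a gene lie closer together at high levels than at low ones, and genes of 1 class differ by up to several orders of magnitude.

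H2A and H2B genes often lie head to head and share the stretch between their starts. There were 12 such pairs (starts 175 to 305 bases apart), of which 9 had both genes kept. Sharing that stretch did not mean equal levels. Per kb of coding sequence H2A exceeded H2B in 2 of the 9 pairs: 39.1-fold for Hist2h2ac over Hist2h2be (3132 against 80.1) and 5.96-fold for Hist1h2an over Hist1h2bp. Hist1h2ak and Hist1h2bn were nearly level (3978 against 4180), whereas Hist1h2ag stood at 279 against 2357 for Hist1h2bj. Unique sequence differs within these pairs: 23.8% of the 100-base stretches of Hist1h2ag and 59.9% of those of Hist1h2bj occur in no other gene. For Hist2h2ac and Hist2h2be the shares were 83.1% and 100%. The part of shared sequence in the levels of these pairs was not tested.

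ADAR2_WT was compared with the empty vector to ask what the active enzyme changes. Only Hist1h1e rose past the threshold (limma on log2 of the normalised count plus 1, adjusted p under 0.05), 1 of 55 members. Over all 14958 genes tested, 0.441% were higher and 0.374% lower at that threshold. Most members lay higher by a small amount: 49 of 55 had a log2 fold change above 0 (49.6% of all genes), and their median was 0.17 against -0.0025 for all genes, at a place above 78.8% of genes. At an unadjusted p under 0.05, 16 members were higher (6.99% of all genes) and 0 were lower (7.11%). In both donors 40 members lay above 0 (31.2% of all genes), and for 34 both ADAR2_WT libraries lay above both empty-vector libraries (18.7%). The donors differed in size, with a median of 0.27 in donor A and 0.081 in donor B.

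Hist1h1e (ENSMUSG00000051627.3, chromosome 13, 23620629 to 23622558, minus strand) encodes a somatic linker histone. It had 3568 and 3698 normalised counts with the empty vector, 5015 and 4708 with ADAR2_WT, and 4195 and 3802 with ADAR2_E396A. The ADAR2_WT libraries were the 2 highest and the empty-vector libraries the 2 lowest, with no overlap between groups. Its log2 fold change with ADAR2_WT was 0.42 ± 0.070 (SE, n = 2 per group, limma adjusted p = 0.043), a 1.34-fold rise. The authors' deposited table gave -0.42 for the empty vector over ADAR2_WT with an adjusted p of 0.0039, the 1 member of 51 with a value there that passed 0.05. Of its exon bases, 25.7% are shared with Hist1h2be on the same strand and 16.6% with a pseudogene, Gm11398.

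The call of Hist1h1e does not hold throughout. Without the donor term its adjusted p was 0.634, without the mean-variance trend 0.412, and over genes with a mean of at least 50 counts 0.0538, within a range of 9.17e-07 to 0.897 over all alternatives. The number of members called was 0 when donor A's empty-vector library or either ADAR2_WT library was left out. It was 10 without donor B's empty-vector library, 7 and 9 without the ADAR2_E396A library of donor A and of donor B, and 9 with the 4 compared libraries alone. Calls over all genes moved too, from 122 to 917, 941, 1217 and 1237 in these 4 settings.

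H2A genes had the highest class median with ADAR2_WT, 0.30. Of 13, 12 lay above 0 (49.6% of all genes) and 7 were higher at an unadjusted p under 0.05 (6.99%). Of these H2A genes 0 passed the adjusted threshold. Hist1h2af came nearest, with 467 and 543 normalised counts with the empty vector, 765 and 701 with ADAR2_WT and 612 and 642 with ADAR2_E396A. The 3 groups did not overlap for this gene. Its log2 fold change was 0.54 ± 0.10 (SE, limma adjusted p = 0.067 with ADAR2_WT), and only 20.7% of its 100-base stretches are unique. Hist1h2ac followed with 435 and 480, 636 and 613, and 572 and 503 counts in the same order (0.45 ± 0.11, adjusted p = 0.12). Of its 100-base stretches 91.9% are unique, and the part of shared sequence in the H2A values was not tested. Hist1h2ag (0.50 ± 0.21) had 75.3 to 133 counts in all and Hist1h2ab (0.40 ± 0.098) 1035 to 1533. The lowest H2A gene was Hist1h2ad at -0.090 ± 0.22, with groups that overlapped.

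H1 genes other than Hist1h1a also lay above 0 with ADAR2_WT, at 0.22 ± 0.067 for Hist1h1c, 0.21 ± 0.071 for Hist1h1d and 0.20 ± 0.095 for Hist1h1b. Hist1h1c had 7098 and 7443 counts with the empty vector, 8578 and 8405 with ADAR2_WT and 7916 and 7295 with ADAR2_E396A. Its ADAR2_WT libraries were the 2 highest. Hist1h1a had the lowest value of all members in this comparison, -0.20 ± 0.091 (limma adjusted p = 0.38), and its groups overlapped.

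For H2B the median was 0.13 (13 of 15 above 0, 4 at an unadjusted p under 0.05), for H3 0.17 (8 of 9, and 1) and for H4 0.12 (12 of 13, and 1), none past the adjusted threshold. Over all genes, 49.6% lay above 0 and 6.99% were higher at that unadjusted p. The genes with the highest level per kb of exon in these classes were at 0.23 ± 0.092 (Hist1h2bn), 0.081 ± 0.087 (Hist1h3e) and 0.14 ± 0.068 (Hist1h4d). Those next in H3 and H4 ran from 0.067 ± 0.080 (Hist1h4f) to 0.22 ± 0.089 (Hist1h4k), with Hist1h3c at 0.15 ± 0.085 and Hist1h3b at 0.17 ± 0.077. Among members averaging at least 50 counts, Hist1h2bp had the largest SE (0.34). It had 53.3 and 56.7 counts with the empty vector but 81.9 (donor A) and 31.3 (donor B) with ADAR2_WT. Its ADAR2_WT libraries were the highest and the lowest of the 6. Hist4h4, on chromosome 6, had 517 and 510 counts with the empty vector and 497 and 487 with ADAR2_WT. Its difference was -0.061 ± 0.11 (SE, limma adjusted p = 0.85).

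**Figure D4:**
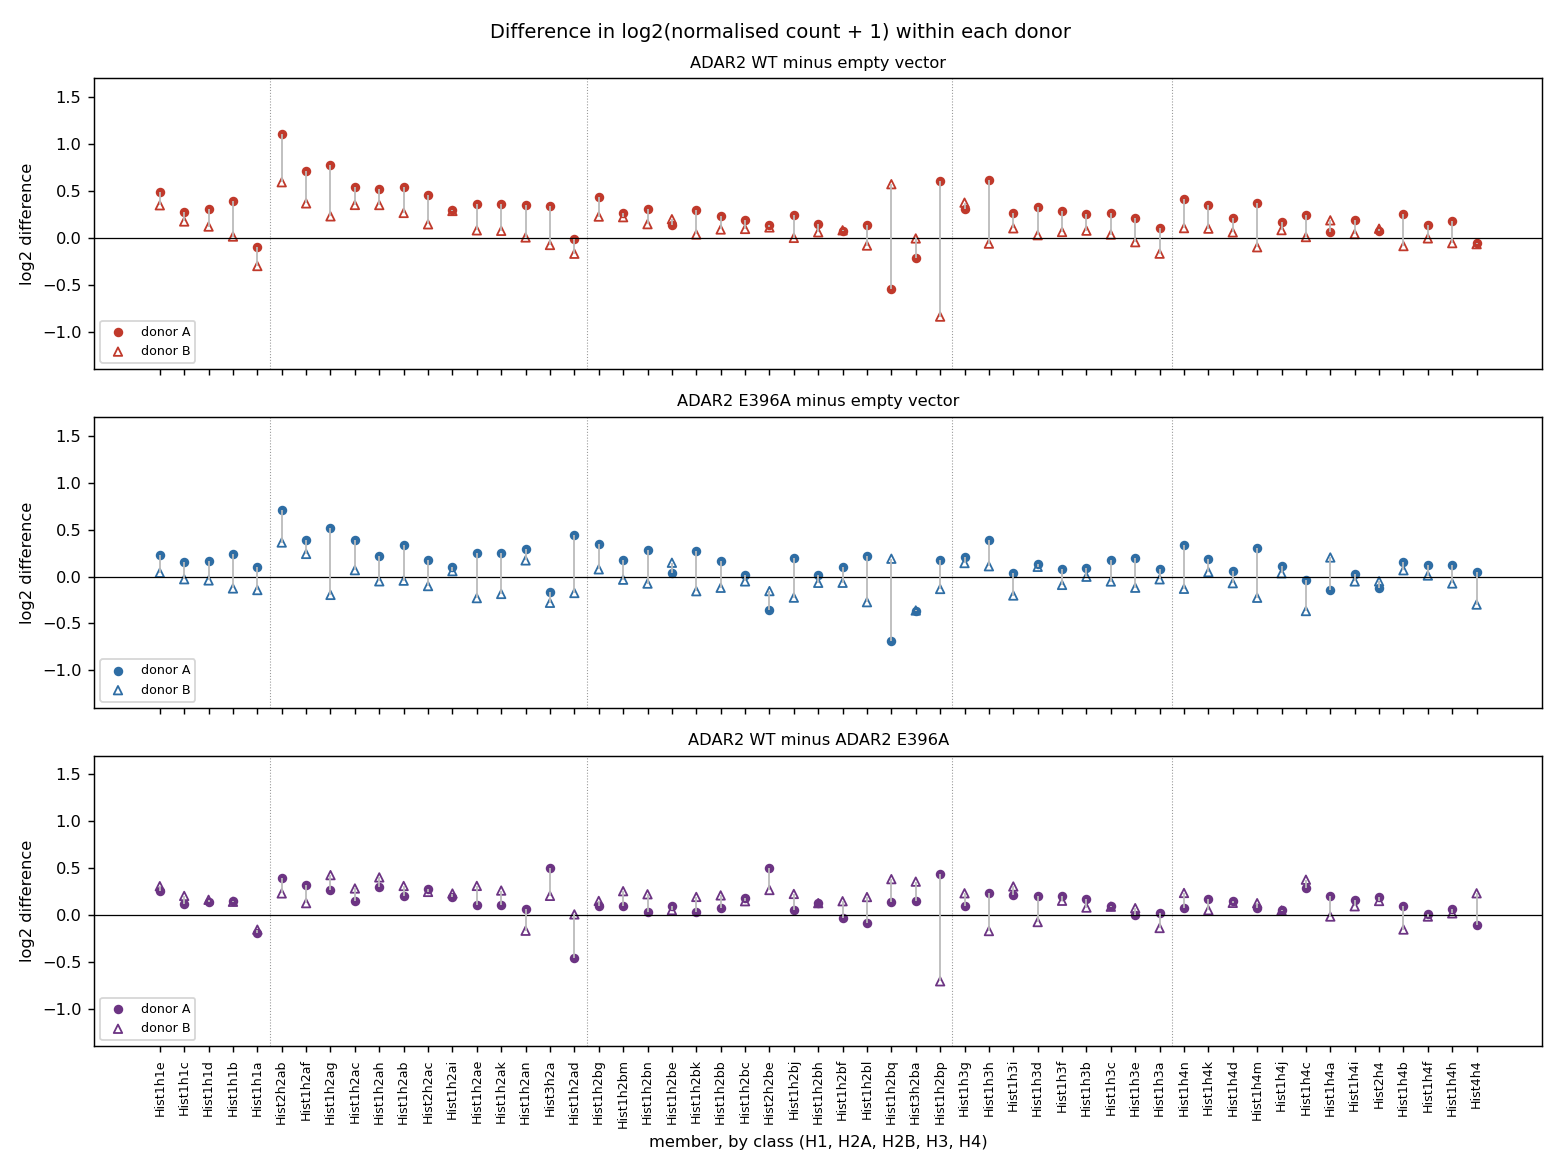
Difference in log2(normalised count + 1) for each of the 55 kept members within donor A (circles) and donor B (triangles), in the 3 comparisons from top to bottom; dotted lines part the classes. In the top panel 50 circles and 41 triangles lie above 0, in the middle panel 48 and 17, and in the bottom panel 50 and 46.

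ADAR2_E396A was compared with the empty vector to ask what the protein does without its enzymatic activity. No member passed the threshold by limma, edgeR or DESeq2. Over all genes, limma called 0.00669% in each direction. In both directions together edgeR called 2 genes and DESeq2 7. At an unadjusted p under 0.05, 2 members were higher (2.11% of all genes) and 0 lower (1.78%). These were Hist1h2af (0.31 ± 0.10, limma adjusted p = 0.999) and Hist1h2bg. The median over members was 0.043 against -0.0095 for all genes, above 64.95% of them, and 39 of 55 members were above 0 (46.9%). In both donors 15 lay above 0 (21.4% of all genes), and for 12 the groups did not overlap on the higher side (11.5%).

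The donors went opposite ways with ADAR2_E396A. Of the 55 members, 48 lay above 0 in donor A and 17 in donor B, with medians of 0.17 and -0.053, while over all genes the medians were -0.015 and 0.00076. Leaving out donor A's empty-vector library gave a median of -0.062, and leaving out donor A's ADAR2_E396A library -0.025. The highest members by the naming rule were Hist1h2af, Hist1h3h (0.25 ± 0.19) and Hist1h2an (0.23 ± 0.12). The lowest were Hist1h4c (-0.21 ± 0.10), Hist4h4 (-0.13 ± 0.11) and Hist2h4 (-0.085 ± 0.084). Hist1h4c had 591 and 741 counts with the empty vector and 574 in each ADAR2_E396A library, so its ADAR2_E396A libraries were the 2 lowest, though its empty-vector libraries differed more from each other.

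The 2 forms of ADAR2 were compared with each other to set the active enzyme against the dead one. Adarb1 itself was higher with ADAR2_WT than with ADAR2_E396A, by 0.29 ± 0.067 on the log2 scale (limma adjusted p = 0.16). The part of this in the histone difference was not tested. No member passed the adjusted threshold by limma, edgeR or DESeq2. Over all genes, limma called 0.0134% higher and 0.0535% lower with ADAR2_WT. In both directions together edgeR called 10 genes and DESeq2 110. Again most members lay higher with ADAR2_WT: 48 of 55 (50.9% of all genes), with a median of 0.14 against 0.0044 for all genes, above 76.98% of them. At an unadjusted p under 0.05, 8 members were higher (6.43%) and 0 lower (5.96%). In both donors 42 were above 0 (32.9%), and for 33 both ADAR2_WT libraries lay above both ADAR2_E396A libraries (19.4%). Here the donors were alike in size, with medians of 0.14 and 0.15. This comparison and the first share the ADAR2_WT libraries, so their counts are not independent of each other.

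Between the 2 forms, the highest members averaging at least 50 counts were Hist1h2ah (0.35 ± 0.15), Hist1h2ag (0.34 ± 0.21) and Hist1h4c (0.33 ± 0.10, limma adjusted p = 0.26). Hist1h4c had 699 and 746 counts with ADAR2_WT against 574 and 574 with ADAR2_E396A. The lowest were Hist1h2ad (-0.22 ± 0.22), Hist1h1a (-0.17 ± 0.091) and Hist1h2bp (-0.14 ± 0.34). For Hist1h1e the difference was 0.28 ± 0.070 (adjusted p = 0.19). Without either empty-vector library or the ADAR2_E396A library of donor A, 1 member was called here (adjusted p for Hist1h1e 0.0244 to 0.0286), of 428 to 846 genes called in all against 10 with every library.

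**Figure D5:**
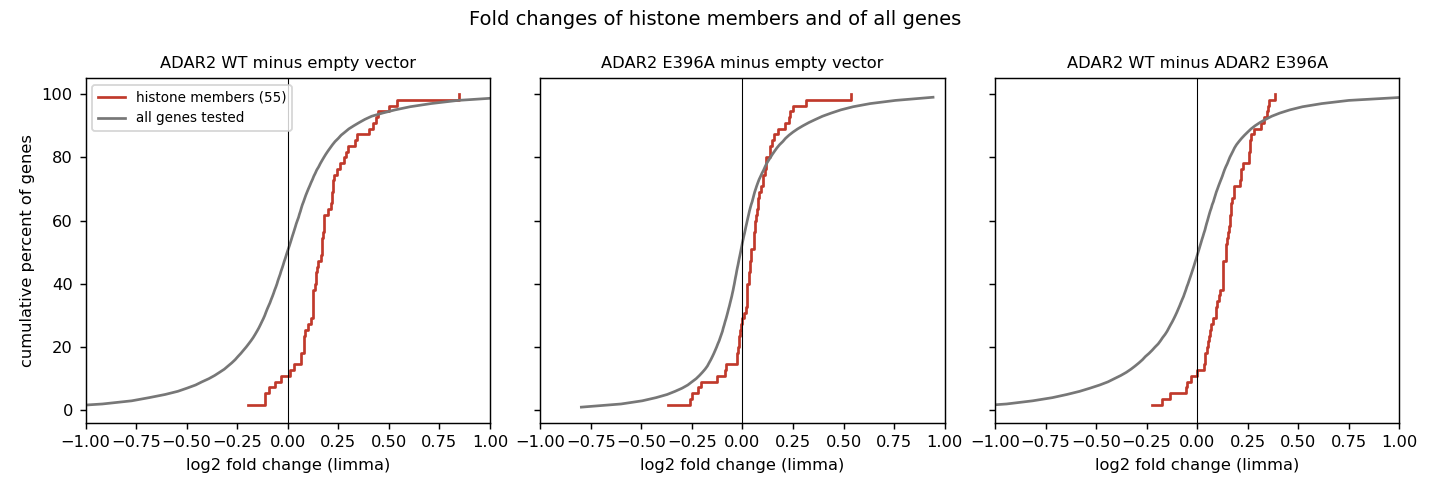
Cumulative percent of genes (vertical) at or below a given limma log2 fold change (horizontal) for the 55 kept histone members (red) and all 14958 genes tested (grey) in the 3 comparisons. The red curve lies to the right of the grey one over most of its range in the left and right panels (medians 0.17 and 0.14) and closer to it in the middle one (0.043).

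Members were then grouped by features that the name rule did not use. The 28 kept genes of the largest chromosome 13 block (23531050 to 23934851) had a median of 0.16 with ADAR2_WT over the empty vector. The 15 and 5 kept genes of the other Hist1 blocks (21715763 to 21837530 and 22035164 to 22043676) had medians of 0.20 and 0.17, and the 4 of Hist2 0.21. The 2 kept Hist3 genes had a median of 0.011, and Hist4h4 was at -0.061. The median was 0.15 for the 37 with a stem-loop and 0.19 for the 18 with none found. Those 18 include genes with no annotated bases after the stop codon, such as Hist1h2ak and Hist1h4k, where none could be found. The median was 0.18 with CCAAT in the promoter (41 genes) and 0.12 without it (9). With the octamer it was 0.27 (10, all above 0) against 0.14 without it (40). By unique 100-base stretches, it was 0.28 for the 9 members with under 25%, 0.15 for the 25 between and 0.14 for the 21 with at least 75%. The octamer is held only by H2A and H2B genes, and none of these differences was tested.

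Of 22 listed factors that make, bind and degrade histone mRNA, 0 passed the adjusted threshold in limma in any comparison, and 11 lay above 0 with ADAR2_WT over the empty vector (median 0.0030). Slbp had 1036 and 1043 counts with the empty vector, 1179 and 1212 with ADAR2_WT and 1083 and 1050 with ADAR2_E396A. Both ADAR2_WT libraries were the highest, by 0.20 ± 0.076 on the log2 scale (limma adjusted p = 0.29), the 1 gene of this list at an unadjusted p under 0.05. Npat, which switches on histone genes at the start of S phase, was at 0.084 ± 0.072 (adjusted p = 0.65). Histone chaperones, which carry new histones to DNA, had a median of 0.090 (15 of 19 above 0, 3 at an unadjusted p under 0.05: Nasp, Hat1 and Daxx, 0 past the adjusted threshold). Over all genes in this comparison, 49.6% lay above 0 and 6.99% were higher at that unadjusted p.

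Lists of cell cycle genes were read beside the histone genes. Over all genes, 49.6% lay above 0 with ADAR2_WT over the empty vector, and 6.99% were higher at an unadjusted p under 0.05. With ADAR2_E396A these shares were 46.9% and 2.11%. Among 32 genes of S phase and DNA replication, 27 were above 0 with ADAR2_WT over the empty vector (median 0.13, 5 at an unadjusted p under 0.05, 0 past the adjusted threshold). Their sum was 3394 and 3786 RPM with the empty vector, 3842 and 3852 with ADAR2_WT and 3627 and 3951 with ADAR2_E396A. Donor A's empty-vector library was the lowest of the 6, as it was for the histone sum. Pcna, the sliding clamp of DNA polymerase, was at 0.036 ± 0.072 (adjusted p = 0.87). All 20 genes of G2 and mitosis lay above 0 (median 0.24, 14 at an unadjusted p under 0.05, 0 past the adjusted threshold), among them Mki67 at 0.25 ± 0.061 (adjusted p = 0.12). By donor, A then B, the medians were 0.20 and 0.025 for S phase and 0.41 and 0.11 for G2 and mitosis. With ADAR2_E396A all 20 lay above 0 as well (median 0.16, 7 at an unadjusted p under 0.05), and 26 of the 32 S-phase genes did (median 0.054). Between the 2 forms the medians were 0.095 for G2 and mitosis and 0.048 for S phase, against 0.14 for the histone genes. Donor B differed from this: with ADAR2_E396A its medians were 0.064 for S phase and 0.098 for G2 and mitosis against -0.053 for the histone genes, and between the 2 forms -0.026 and 0.0077 against 0.15. Their part in the histone difference was not tested.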

How the data were processed

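Per the labels' protocols, RNA of 6 mouse T cell cultures was depleted of ribosomal RNA, made into libraries with 8 PCR cycles and sequenced on a NovaSeq. The submitters' processing notes name STAR 2.6.1a, featureCounts, DESeq2 1.18.1 and the mm10 build. The sources used here do not give parameters, strand setting, read length or annotation. There are 2 deposited tables of 55450 genes, in which the authors give DESeq2's log2 fold change (empty vector over construct), its error, the Wald score, and raw and adjusted p-values. Beside them stand 4 deposited library columns of normalised counts, a signal never below 0.

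Each deposited library column held whole reads divided by 1 factor. Reads were recovered from it, all values above 0 (100%) coming out whole within 0.001 of a read, and gave the same reads in both tables. Library columns carry no group name. A column present in both tables was taken as the empty vector, any other as the construct in its table's name. Donors were assigned from the authors' Wald scores before calls were compared. With the pairing used, a DESeq2 refit differed from them by at most 3.43e-12 over 28601 genes (ADAR2_WT) and 5.72e-05 over 28872 genes (ADAR2_E396A). Fits without a donor term differed by up to 6.67 and 2.03, and fits with crossed donors by up to 13.8 and 6.08. The labelled replicate number of each donor is unknown.

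Reads were scaled by median-of-ratios factors over the 6 libraries and filtered with edgeR 4.0.16 (filterByExpr), leaving 14958 genes. They were tested as log2(normalised count + 1) in limma 3.58.1 (R 4.3.3) with group and donor as terms, a mean-variance trend and Benjamini-Hochberg adjustment at 0.05. This scale understates changes of low genes. The number of reads sets the precision of low members, and PCR copies could not be told apart. Alternatives were edgeR's quasi-likelihood test, DESeq2 1.42.0, other factors, filters, pseudocounts and sets of libraries, and, added after the data were seen, coding in place of exon length. The test was also run on counts simulated without a donor difference, which does not show how it performs on these data.

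The histone members and the gene lists (histone mRNA factors, S phase, G2 and mitosis, chaperones, cell type markers) were chosen with earlier results of these data known. Members named are those past the threshold, the 3 highest per kb of exon in each class, the 3 highest and 3 lowest fold changes of each comparison among kept members averaging 50 counts or more, and those the filter left out. Of the lists, Slbp, Npat, Pcna, Mki67, passing genes and markers at 0 are named. Il17a, Nasp, Hat1, Daxx, H2afx, H2bfm, Tmem164, Hist1h1d, Hist1h2be, Hist1h2bg, Hist2h2be, Hist1h2ae the partners of overlapping genes and members named only for their sequence were chosen after their values were seen.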

Additional observations from a re-analysis of the deposited data

Results flagged for a closer look

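With ADAR2_E396A against the empty vector, the median log2 difference of the 55 kept histone members was 0.17 in donor A and -0.0531 in donor B. The result stands out because the donors lie on opposite sides of 0. The difference between donors was not tested.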

How the results depend on the processing

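With ADAR2_WT over the empty vector, 1 histone member was called, and the number changed with the setting. It was 2 with edgeR's TMM factors, without a filter and with DESeq2, 0 over genes with a mean of at least 50 counts and without the mean-variance trend, and 9 with the 4 compared libraries alone. Without the donor as a replicate block it was 0. Leaving out each library in turn gave 0 to 10 members of 1 to 1217 genes called in all, and between the 2 forms of ADAR2 0 to 1 of 0 to 846. A group left with 1 library is then assumed to vary like the others. The median of members stayed above 0 for ADAR2_WT over the empty vector in all settings (0.071 to 0.273 with a library left out). For ADAR2_WT over ADAR2_E396A it was 0.125 with factors from nuclear protein-coding genes, 0.127 over genes with a mean of at least 50 counts, and 0.0937 to 0.215 with a library left out. For ADAR2_E396A over the empty vector, leaving out a library gave medians of -0.0618 to 0.155 and log2 ratios of the histone sums of -0.0099 to 0.155. The cause was not tested.

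Single genes that changed sign with a library left out had these ranges for ADAR2_WT over the empty vector: Hist1h2ad -0.285 to 0.106, Hist1h2bj -0.0425 to 0.294, Hist1h2bp -0.762 to 0.534, Hist1h3e -0.0629 to 0.227, Hist1h4c -0.0146 to 0.268 and Hist4h4 -0.15 to 0.0304. Between the 2 forms they were -0.499 to 0.0471 for Hist1h2ad and -0.782 to 0.511 for Hist1h2bp, and for Hist4h4 with ADAR2_E396A over the empty vector -0.295 to 0.0467. Hist1h1e lost its call in 3 of these and 3 of the other settings. Depth limits most the 5 kept members with a mean under 50 counts and the 7 left out with some reads.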
